A study of Mus musculus with 8 samples.

Results

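The comparison set tumours of TC-1/IR, a radiation-resistant line, after irradiation against tumours of the same line given buffer. It used 2 of the 8 membranes of the study, chosen by their labels, and all 111 analytes on them. The parental line, TC-1, consists of mouse epithelial tumour cells that carry the HPV16 oncogenes E6 and E7. All hosts were female C57BL mice aged 10 weeks with tumours under the skin of the right thigh, and treatment began when tumours measured about 100 mm3, on day 8 to 10. In the TC-1/IR RT group, mice bearing tumours from 300000 TC-1/IR cells were given 2 Gy of gamma rays to the whole body on each of 4 days (RT). Mice of the TC-1/IR buffer group carried tumours from the same number of cells and had neither radiation nor cytokine. For comparison, TC-1/IR tumours after RT with rhIL-7-hyFc were set against those after rhIL-7-hyFc alone, a long-acting human interleukin-7 injected at 50 µg on days 0 and 7. TC-1 tumours from 100000 cells after RT were set against TC-1 tumours given buffer.

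Each group had 1 membrane, so no value below has a biological error and none of the comparisons between single membranes has a p-value. The titles call each lysate pooled, whereas the design text speaks of separate tumours of individual mice, so how many animals a membrane stands for is unclear. Radiation reached the whole animal, so blood, marrow and other host tissue were irradiated with the tumour. The lysates held tumour cells, host cells and blood together, and fewer cells of a type cannot be told apart from less protein per cell. The panel holds no HPV16 protein and so offers no check of the line.

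Ionising radiation kills dividing cells, and dying cells release alarmins that act on neighbouring myeloid cells and vessels. Irradiated tissue is known to make interferon-induced chemokines, which attract T and NK cells, and to draw in myeloid cells that clear debris. Antagonists such as IL-1ra and inhibitors of proteases and of Wnt signalling hold these responses in check.

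The array was a set of capture antibodies in duplicate spots, read as spot intensity on a linear scale. The intensities of the 111 analytes summed to 1473 on the RT membrane and 765 on the buffer membrane, a ratio of 1.92. On the other 6 membranes the sum ran from 739 to 1495. Analytes above the floor of 2.49, which is 1% of the highest analyte on any membrane, numbered 64 after RT and 38 with buffer. The 28 analytes above the floor on all 8 membranes had a median intensity of 17.3 after RT and 9.60 with buffer, a shift of 0.84 on the log2 scale. Ratios are given as deposited first, and a later paragraph gives them after median centring, which divides out that shift before the floor is set. Where the buffer value stays at the floor, centring takes less than the shift from the bound. The source of the shift was not tested.

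An analyte was called when the 2 means differed at least 1.5-fold, 1 of them lay above the floor and the duplicate spots did not overlap. There were 67 analytes with a mean over the floor after RT, with buffer or on both membranes. Of these, 31 were higher after RT (46.3%), 2 were lower (2.99%) and 34 were neither. The other 44 were below the floor on both. Among the 31, 20 were above the floor on both membranes, and the other 11 give only a lower bound, since the buffer value was set to the floor. The 35 analytes measured on both membranes had ratios above 0 in 30 cases and below 0 in 5, with a median of 0.90 on the log2 scale. Just inside the limit lay TNF-α (at least 1.52-fold), IL-7 (at least 1.52-fold) and PDGF-BB (1.57-fold). Just outside it were tissue factor (1.46-fold), CCL11 (at least 1.42-fold) and angiopoietin-like 3 (at least 1.40-fold).

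**Figure D1:**
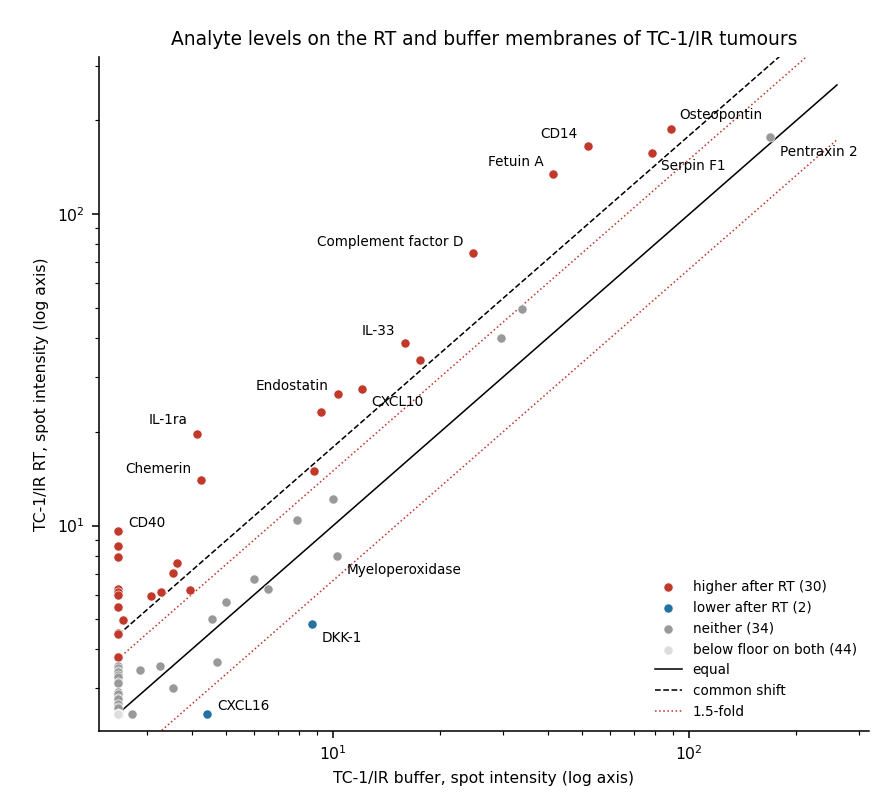
Mean spot intensity of each analyte on the TC-1/IR RT membrane (vertical, log axis) against the TC-1/IR buffer membrane (horizontal, log axis), with values under 2.49 set to it and 1 analyte left out. Most points lie above the line of equality, and CD14, fetuin A, complement factor D and IL-1ra lie above the dashed line of the common shift, while pentraxin 2 sits near equality.

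The common shift was not alike at all levels. In the 11 brightest of the 35 analytes measured on both membranes the median log2 ratio was 1.08, against 0.58 in the 12 of middle level and 0.46 in the 12 dimmest. CD14, osteopontin, fetuin A, Serpin F1 and complement factor D together made up 61.5% of the difference in summed intensity. Without these 5 the sums were 752 after RT and 480 with buffer, a ratio of 1.57. The order of the analytes was much alike on the 2 membranes, with a Spearman correlation of 0.87 across the 35 analytes, which share the membranes and are not independent. Osteopontin was the brightest analyte after RT and pentraxin 2 the brightest with buffer.

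The strongest signals came from proteins of plasma, myeloid cells and matrix. CD14 (Cd14), the monocyte coreceptor for endotoxin, gave spots of 163.73 and 167.54 after RT and 52.6 and 51.09 with buffer. It was 3.19-fold higher (log2 1.68, SE 0.03 from the duplicate spots), and its share of the summed signal was 11.2% after RT and 6.78% with buffer. Chitinase 3-like 1, the other marker of monocytes and macrophages, was below the floor on both membranes. Fetuin A (Ahsg), a liver protein that binds calcium phosphate, gave 137.59 and 131.5 after RT and 41.14 and 41.79 with buffer. It was 3.24-fold higher (log2 1.70, SE 0.03), and its share was 9.14% after RT and 5.42% with buffer. Complement factor D (Cfd), the protease of the alternative complement pathway and an adipose product, read 76.9 and 72.62 after RT and 24.55 and 24.72 with buffer. That is 3.03-fold (log2 1.60, SE 0.04). In all 3 proteins the duplicate spots of the membranes lay far apart.

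The other plasma proteins had smaller ratios or bounds. Pentraxin 2 (Apcs), an opsonin made by liver, gave 182.8 and 171.28 after RT and 175.54 and 162.31 with buffer, a log2 ratio of 0.07 (SE 0.07) with overlapping spots. Its share of the summed signal was 12.02% after RT and 22.1% with buffer. RBP4, the retinol carrier, was at least 2.40-fold higher, at 6.66 and 5.27 after RT against 1.26 and 1.11 with buffer. CRP was below the floor on both membranes. The plasma markers fetuin A, pentraxin 2, RBP4 and CRP summed to 318 after RT and 212 with buffer, and the part of plasma content in the other differences was not tested. Cystatin C, an inhibitor of cysteine proteases, and tissue factor, which starts coagulation, had ratios of 0.43 (SE 0.05) and 0.54 (SE 0.04), under the limit. Of 7 liver plasma proteins on the array, 4 were measured and 2 were higher, a share near the 46.3% of all measured analytes.

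Osteopontin (Spp1), a matrix phosphoprotein that macrophages and tumour cells secrete, read 185.88 and 189.5 after RT and 88.36 and 89.33 with buffer, 2.11-fold. Serpin F1 (PEDF), an inhibitor of vessel growth, was 2.01-fold higher, at 163.09 and 151.99 after RT against 75.66 and 81.1 with buffer. Chemerin, a chemoattractant for dendritic cells and macrophages, read 13.93 and 13.99 after RT and 4.06 and 4.42 with buffer, 3.29-fold. All 3 measured members of the list of monocyte and macrophage products (CD14, osteopontin and pentraxin 3) were higher. Their median log2 ratio was 1.08, against 0.90 over the 35 analytes above the floor on both membranes, as these 3 were. After centring only CD14 of the 3 was called. Of the 5 monocyte chemokines and growth factors, all measured, chemerin alone was higher. CCL2 and CCL12, chemoattractants for monocytes, were barely above the floor after RT, at means of 2.60 and 3.27, against 0.465 and 0.925 with buffer, and CCL6 and M-CSF lay within 1.5-fold.

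In the IL-1 family the antagonist had the largest ratio. IL-1ra (Il1rn), which occupies the IL-1 receptor without signalling, gave 19.68 and 19.67 after RT and 4.89 and 3.38 with buffer, 4.76-fold higher (log2 2.25, SE 0.26). Among analytes measured on both membranes it had the largest ratio as deposited, and its rank by intensity was 14 after RT and 27 with buffer. IL-33, an alarmin stored in nuclei, read 38.52 and 38.48 after RT and 16.82 and 14.96 with buffer, 2.42-fold higher. IL-1α, an agonist released from dying cells, had overlapping spots, at 2.94 and 1.92 after RT against 3.36 and 2.07 with buffer (log2 -0.12, SE 0.25). IL-1β was below the floor on both membranes. The list thus had 2 of 3 measured members higher, against 46.3% of all measured analytes. After centring IL-1ra was higher, IL-1α lower and IL-33 neither, where 20.0% of analytes were higher and 20.0% lower.

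CD40, the receptor by which T cells license antigen-presenting cells, gave 11.14 and 8.08 after RT and 0.55 and 0.81 with buffer, at least 3.86-fold higher. TNF-α, the founding ligand of the TNF superfamily, was at least 1.52-fold higher, at 4.14 and 3.44 after RT against 1.10 and 0.50 with buffer. Osteoprotegerin and BAFF, the other members of the list of TNF family ligands and receptors, were below the floor on both. Among the 4 TC-1/IR membranes, CD40 exceeded the floor after RT alone.

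**Figure D2:**
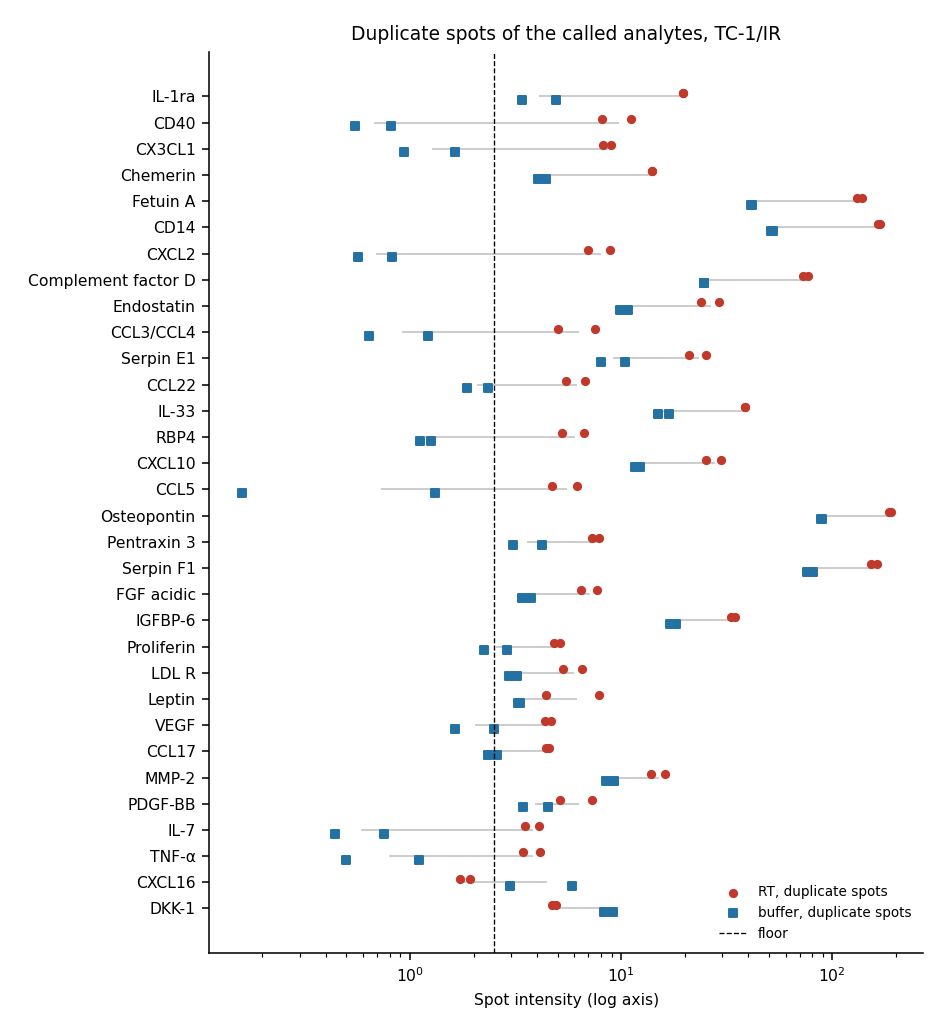
Duplicate spot intensities (log axis) of 32 of the 33 called TC-1/IR analytes, ordered by ratio, with RT as circles, buffer as squares and the floor of 2.49 as a dashed line. For CD40, CX3CL1, CXCL2, CCL3/CCL4, CCL22, RBP4, CCL5, IL-7 and TNF-α both buffer spots lie below the floor, so their ratios are lower bounds. Those of CCL17 and VEGF, with a buffer mean below the floor, are lower bounds too.

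Of the 7 entries of interferon-linked and T or NK cell chemokines, 6 were measured, 4 were higher and 1 was lower, against 46.3% and 2.99% of all measured analytes. Their median log2 ratio was 1.16, against 0.48 over all 67 measured analytes, both with bounds included. After centring 3 were higher and 1 lower, all by bounds, and CXCL10, measured on both membranes, was not called. CX3CL1, a membrane-bound chemokine for NK cells and monocytes, gave 8.21 and 8.97 after RT and 0.94 and 1.63 with buffer, at least 3.45-fold higher. CCL3/CCL4, chemoattractants that share 1 entry, read 5.04 and 7.50 after RT and 1.22 and 0.64 with buffer, at least 2.52-fold. CCL5, which attracts T cells, read 4.72 and 6.21 after RT and 0.16 and 1.32 with buffer, at least 2.19-fold. As deposited, these 3 were above the floor on no other TC-1/IR membrane. After centring CCL5 was above it after RT with IL-7 too. CXCL10, induced by interferon and a ligand of CXCR3, read 29.68 and 25.21 after RT and 12.34 and 11.67 with buffer, 2.29-fold higher (log2 1.19, SE 0.12). The remaining CXCR3 ligands were faint. CXCL11 read 3.08 and 3.55 after RT and 0.47 and 0.30 with buffer, and CXCL9 was below the floor on both membranes.

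CXCL16, a scavenger receptor and ligand of CXCR6, was the 1 chemokine called lower. It read 1.72 and 1.93 after RT and 2.97 and 5.88 with buffer, at least 1.78-fold lower, with a wide spread between its buffer spots (SE 0.47 on the log2 scale). From the first spots alone its log2 ratio was -0.25 and the call was lost, and with a floor of 2% it was below the floor on both membranes. Interferon-γ itself was below the floor on both membranes, at 0.77 and 0.67 after RT and at most 0.0011 with buffer.

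Chemokines of other receptors were higher or not called. CCL22 and CCL17, ligands of CCR4 on regulatory and Th2 cells, were at least 2.46-fold and at least 1.81-fold higher. Their means were 6.12 and 4.50 after RT and 2.11 and 2.46 with buffer. CXCL2, a neutrophil attractant acting on CXCR2, gave 8.88 and 6.94 after RT and 0.82 and 0.57 with buffer, at least 3.18-fold higher. Its relatives CXCL1 and LIX were near the floor after RT, at means of 2.89 and 3.44, against 0.105 and 2.87 with buffer. G-CSF and IL-17A were below the floor on both. CCL19, which guides cells to lymphoid tissue, read 4.15 and 2.91 after RT and 4.06 and 2.47 with buffer, with overlapping spots.

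No marker of neutrophils was called as deposited. Myeloperoxidase (Mpo), the granule enzyme, gave 9.13 and 6.78 after RT and 10.32 and 10.12 with buffer (log2 -0.36, SE 0.21), and lipocalin-2 and MMP-9 were below the floor on both. The neutrophil markers summed to 8.65 after RT and 10.3 with buffer. Endothelial markers (E-selectin, CD93 and endoglin) were all below the floor, and summed to 3.65 after RT and 3.40 with buffer.

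Cytokines of lymphocytes and of the IL-6, IL-10 and IL-12 families were mostly not called as deposited. IL-7, which sustains T cells, read 3.50 and 4.09 after RT and 0.75 and 0.44 with buffer and was the 1 of 3 measured lymphocyte cytokines called higher. IL-15 read 12.49 and 8.29 after RT and 8.66 and 7.19 with buffer (log2 0.39, SE 0.32), and IL-13 was near the floor on both membranes. IL-10, which restrains macrophages, read 12.83 and 11.51 after RT and 10.82 and 9.09 with buffer (log2 0.29, SE 0.15). IL-12 read 3.20 and 4.11 after RT and 5.38 and 4.05 with buffer (log2 -0.37, SE 0.27). LIF and IL-11, of the IL-6 family, had log2 ratios of 0.13 and -0.24. Of the 3 measured entries of the IL-10 and IL-12 list and the 2 of the IL-6 list, 0 were called, against 46.3% called higher among all measured analytes. Haematopoietic growth factors likewise had 0 of 2 measured called, M-CSF and thrombopoietin, and 4 more were below the floor on both membranes.

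Among 7 measured factors that promote or restrain vessel growth, 6 were higher after RT, against 46.3% of all measured analytes. Their median log2 ratio was 0.95, against 0.48 over all 67 measured analytes, both with bounds included. Over the 35 analytes above the floor on both membranes the median was 0.90. Endostatin, the collagen fragment that restrains vessels, gave 28.99 and 23.96 after RT and 9.85 and 10.75 with buffer, 2.57-fold higher. VEGF, the chief endothelial growth factor, was at least 1.81-fold higher, at 4.36 and 4.65 after RT against 1.64 and 2.49 with buffer. FGF acidic (1.98-fold), proliferin (1.93-fold) and PDGF-BB, a pericyte growth factor, were also higher, with Serpin F1 above. The list holds promoters and inhibitors of vessel growth, and after centring 0 of its 7 measured members were called. In coagulation and matrix proteolysis, Serpin E1 (PAI-1), which blocks plasminogen activation, was 2.50-fold higher, at 20.97 and 25.19 after RT against 8.04 and 10.46 with buffer. MMP-2, a gelatinase, was 1.70-fold higher, at 13.89 and 16.09 after RT against 9.2 and 8.48 with buffer.

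IGFBP-6, which binds IGF-II, read 33.21 and 34.59 after RT and 16.94 and 18.17 with buffer, 1.93-fold, and was the 1 of 3 measured IGF binding proteins called. Of 3 measured adipose products 2 were called, complement factor D and leptin, and Pref-1 was not, against 46.3% of all measured analytes. After centring leptin, at log2 0.06, was not called and Pref-1 was lower. Leptin, a hormone of adipocytes, was 1.87-fold higher with a wide spread after RT, at 7.83 and 4.42 against 3.32 and 3.24 with buffer. Adiponectin and resistin were below the floor on both membranes. Adipose markers summed to 82.2 after RT and 29.1 with buffer, most of it complement factor D, and their part in the result was not tested. Of 6 endothelial and adhesion molecules 0 were above the floor on either membrane, and of 3 measured epithelial stress and repair factors 0 were called. LDL R, the lipoprotein receptor, was 1.92-fold higher, and pentraxin 3, an opsonin made by myeloid and stromal cells, 2.09-fold.

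DKK-1, a secreted antagonist of Wnt signalling, was the other analyte lower after RT. It gave 4.72 and 4.92 after RT and 9.11 and 8.29 with buffer, 1.80-fold lower (log2 -0.85, SE 0.07), and its spots were clear of each other and of the floor on both membranes. Of the other members of the matricellular and Wnt-linked list, osteopontin was bright, as above, and the rest were faint, with periostin at 2.79 after RT and 0.535 with buffer and WISP-1 below the floor on both.

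Median centring left 60 analytes over the floor on 1 membrane or both, with 12 higher (20.0%) and 12 lower (20.0%). The 12 higher were all among the 31 and comprised CD40, CX3CL1, IL-1ra, CXCL2, CCL3/CCL4, RBP4, chemerin, fetuin A, CD14, CCL5, complement factor D and CCL22. After centring 6 of them were measured on both membranes, and 6 (CD40, CX3CL1, CXCL2, CCL3/CCL4, RBP4 and CCL5) were bounds. Centring took less from bounds, with log2 ratios from 1.95 to 1.58 for CD40 but 1.19 to 0.35 for CXCL10, measured on both. CD40 then had a ratio of at least 2.98-fold, CX3CL1 of at least 2.66-fold and IL-1ra of 2.66-fold. The ratio of DKK-1 became 3.23-fold lower, and CXCL16 was lower by a bound of 2.46-fold. Relative to the other analytes, IL-12 was 2.31-fold lower, myeloperoxidase 2.30-fold, DPPIV, a surface peptidase that trims chemokines, 1.88-fold and pentraxin 2 1.71-fold lower. IL-11, LIF, CCL19, M-CSF, Pref-1 and IL-1α completed the 12, from at least 1.97-fold for IL-11 to at least 1.51-fold for IL-1α. CXCL10 (log2 0.35), IL-33 (0.44), Serpin E1 (0.48) and endostatin (0.52) kept a positive ratio without being called. MMP-2 and PDGF-BB changed sign, to -0.08 and -0.19. The 19 analytes called higher as deposited alone had centred log2 ratios from -0.19 to 0.52. Among them the centred ratio was 1.18-fold for osteopontin, 1.12-fold for Serpin F1, 1.22-fold for VEGF, 1.04-fold for leptin and 1.02-fold for CCL17. CD14 was still called at 1.79-fold, fetuin A at 1.81-fold, chemerin at 1.84-fold and complement factor D at 1.70-fold.

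**Figure D3:**
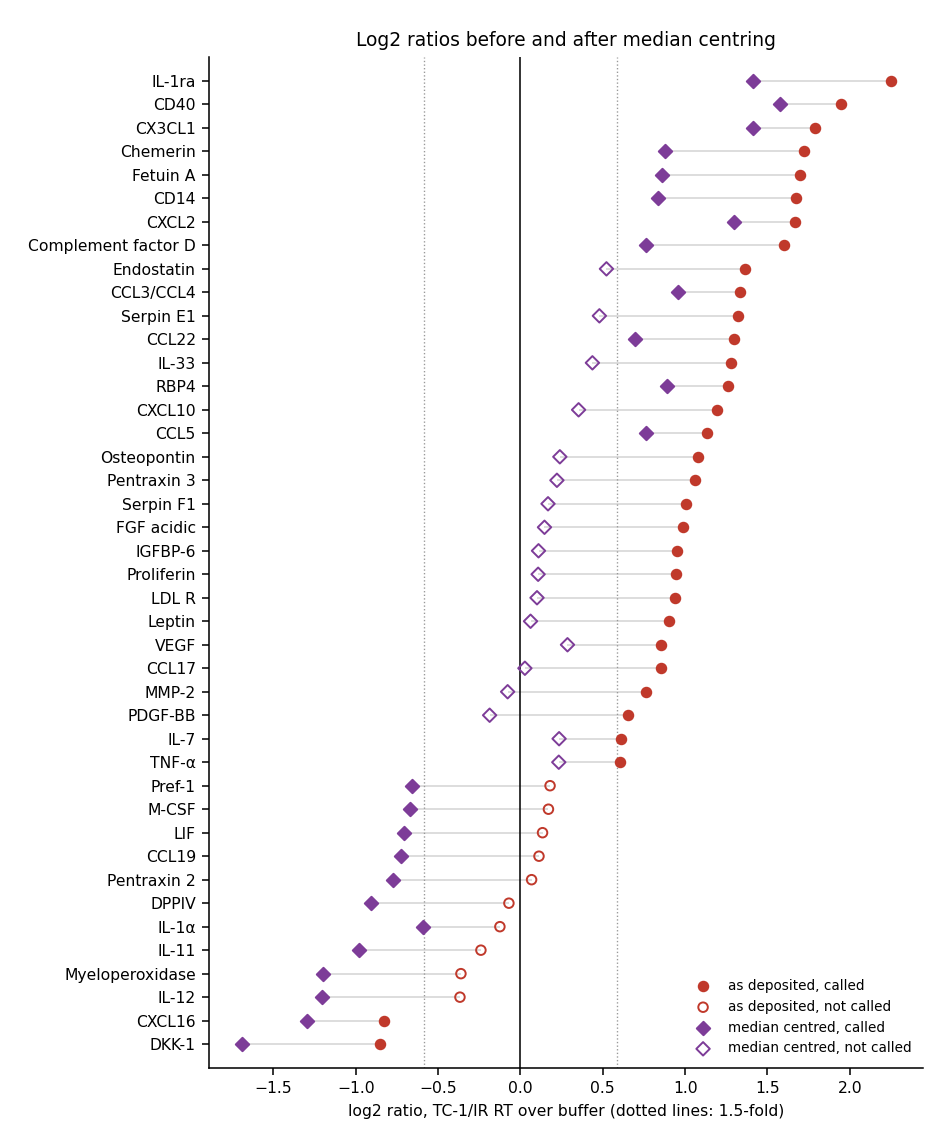
Log2 ratio of TC-1/IR RT over buffer for the 42 analytes shown of the 43 called as deposited or after centring, with circles for deposited values, diamonds for centred values and filled symbols for called ones. Centring moved every analyte to the left; IL-1ra, CD40 and CX3CL1 stayed furthest right and DKK-1 furthest left.

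Levels on the remaining membranes placed both values in a range. Among the 31 analytes higher after RT, the TC-1/IR buffer value was below all 4 TC-1 membranes in 27. The 31 were chosen for low buffer and high RT values, which favours such counts. The TC-1/IR buffer membrane was also dim as a whole, with a sum of 765 against 1173 to 1449 on the TC-1 membranes. Uncalled analytes could lie below too, as IL-4 did, at 0.12 with buffer against 5.08 to 7.21 in TC-1. The RT value was below all 4 TC-1 membranes in 9, within their range in 12 and above it in 10. IL-1ra stayed below, at 19.7 after RT in TC-1/IR against 47.7 to 102 in TC-1. CD14, fetuin A, complement factor D, osteopontin and Serpin F1 were above, with CD14 at 166 against 94.7 to 132 in TC-1. Of the 4 TC-1/IR membranes, the RT one, which the choice of the 31 favours, was the highest for 19 of them and the IL-7 one for 11. The sums of the 4 were 1473 after RT, 1495 after IL-7, 739 after RT with IL-7 and 765 with buffer. As deposited, 15 analytes were above the floor on the RT membrane alone of the 4, against 4 on the IL-7 one and 1 on each other. In all, 64 were above it after RT, 48 after IL-7, 38 with buffer and 36 after RT with IL-7. The 15 were CD40, CX3CL1, CXCL1, CXCL2, CXCL11, CCL2, CCL5, CCL22, CCL3/CCL4, angiopoietin-2, Gas 6, IL-28A/B, periostin, Reg3G and thrombopoietin. Centred, CCL22 and thrombopoietin exceeded it with buffer, and CCL5 and angiopoietin-2 after RT with IL-7. CCL2, CXCL1, Gas 6, IL-28A/B, periostin and Reg3G were then below it after RT.

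**Figure D4:**
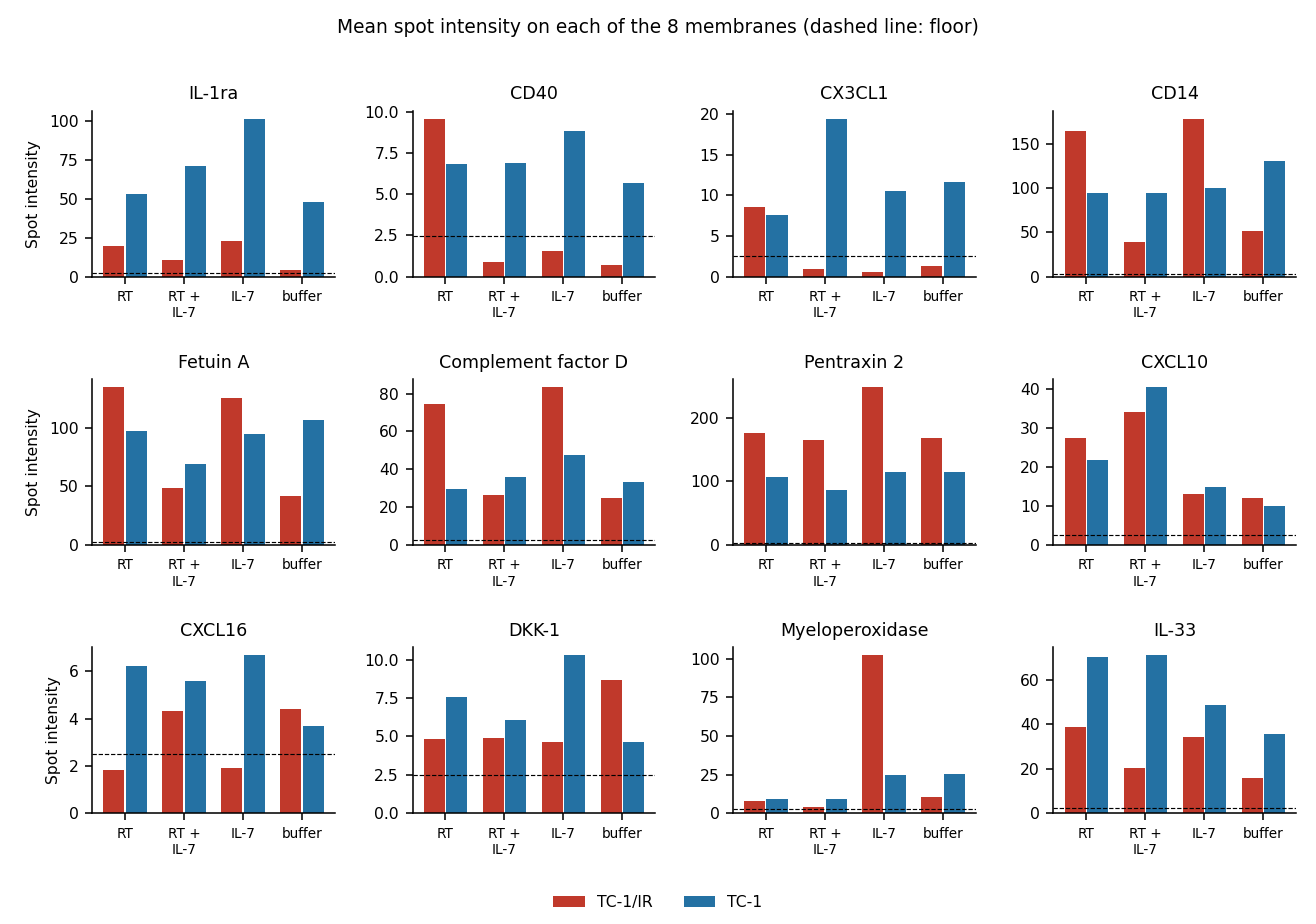
Mean spot intensity of 12 analytes on the 8 membranes, with TC-1/IR in red, TC-1 in blue and 1 membrane a bar. CD14, fetuin A and complement factor D were high on the RT and IL-7 membranes of TC-1/IR and low on the other TC-1/IR membranes; CD40 and CX3CL1 of TC-1/IR exceeded the floor after RT alone; myeloperoxidase was highest in TC-1/IR tumours given IL-7.

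Irradiation was also given in pairs that share no membrane with this one. In TC-1, RT against buffer gave 17 of 86 measured analytes higher (19.8%) and 3 lower (3.49%). Of the 31 analytes higher in TC-1/IR, 6 were also higher in TC-1 (CXCL10, CCL5, CCL17, IL-33, Serpin E1 and FGF acidic), 2 were lower and 23 were neither. Those 6 are 19.4% of the TC-1/IR calls and 35.3% of the TC-1 calls. As deposited, CXCL10 had log2 ratios of 1.19 in TC-1/IR and 1.13 in TC-1, and CCL5 bounds of 1.13 and 1.17. Centred, CXCL10 had 0.35 in TC-1/IR, not called, and 1.18 in TC-1, called higher. As deposited, IL-1ra had 2.25 in TC-1/IR against 0.16 (SE 0.06) in TC-1, and fetuin A 1.70 against -0.14. Complement factor D had 1.60 against -0.18 and CD14 1.68 against -0.47. The common shift was 0.84 in TC-1/IR and -0.06 in TC-1. Centred, IL-1ra had 1.41 against 0.22 and fetuin A 0.86 against -0.09. Complement factor D then had 0.76 against -0.12 and CD14 0.84 against -0.42. After centring, TC-1 had 15 of 78 analytes higher (19.2%) and 1 lower (1.28%). CCL5 was the 1 analyte higher in both lines and myeloperoxidase the 1 lower in both.

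In TC-1/IR given IL-7, the further addition of RT gave 4 of 54 measured analytes higher (7.41%) and 31 lower (57.4%), with a common shift of -0.86. CXCL10 was higher in this pair too, by 1.37 (SE 0.11), and as deposited was the 1 of the 31 higher in all 3 pairs. Centred, its ratio was 2.24 in this pair against 0.35, not called, for RT alone in TC-1/IR. As deposited, CD14 had a ratio of -2.21, complement factor D of -1.67 and IL-1ra of -1.09. After centring, 14 of 65 analytes were higher (21.5%) and 14 lower (21.5%) in this pair. CD14 (-1.35) and complement factor D (-0.80) were still called lower, and IL-1ra, at -0.22, was not called.

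**Figure D5:**
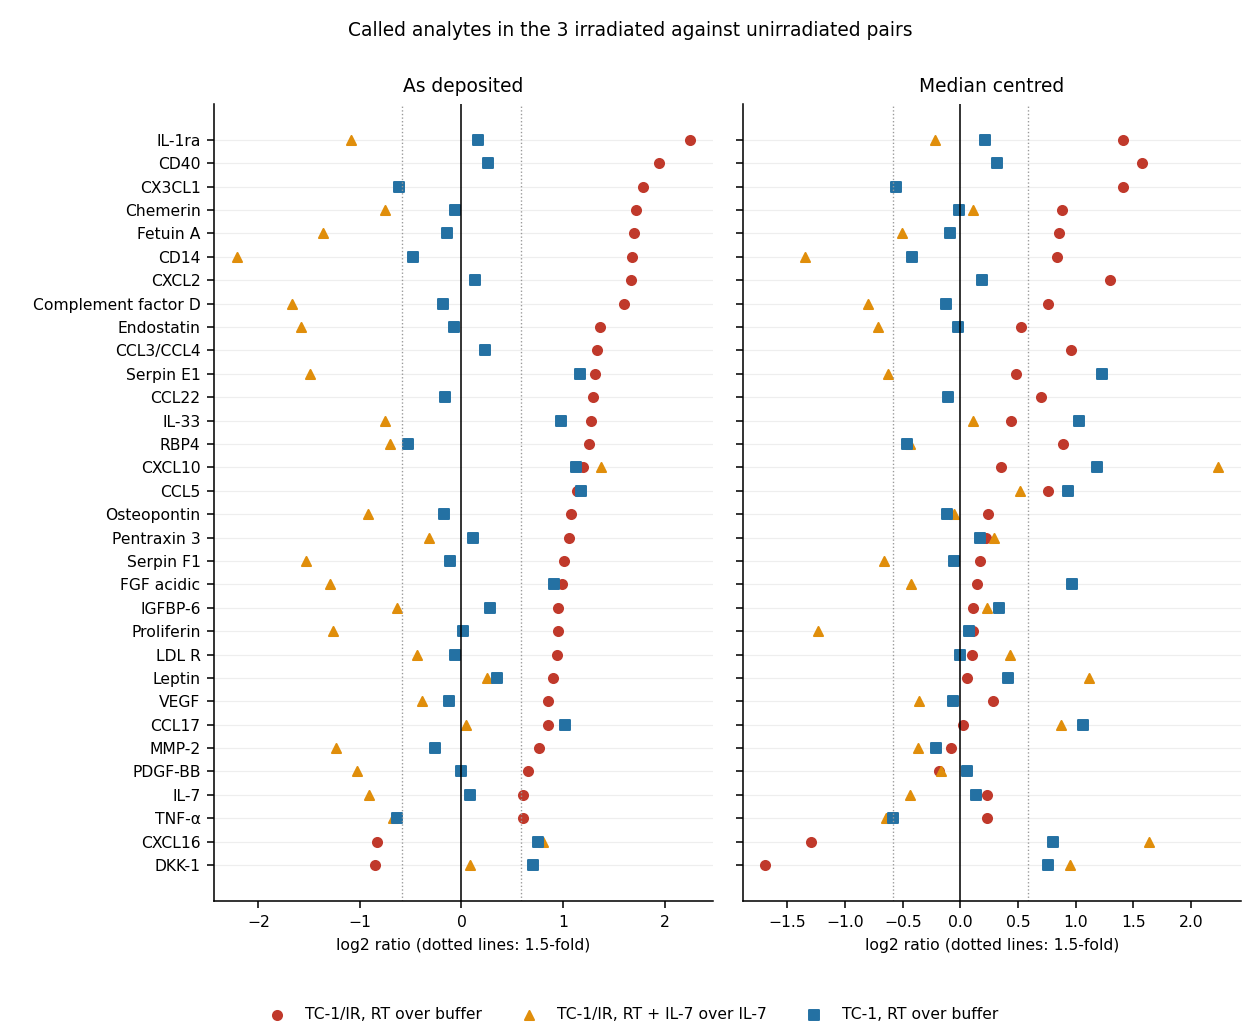
Log2 ratios of 32 called TC-1/IR analytes in the 3 pairs of irradiated over unirradiated membranes, as deposited (left) and median centred (right), without pairs in which both values were below the floor. As deposited, CXCL10 lies between 1.13 and 1.37 in all 3 pairs, and centred from 0.35 to 2.24, while as deposited CD14 and IL-1ra lie to the right for RT alone in TC-1/IR and to the left for RT with IL-7.

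The line by RT interaction, averaged over IL-7, was tested with limma over all 8 membranes. It averages RT against buffer with RT plus IL-7 against IL-7, so it does not test RT against buffer alone. For CD14 in TC-1/IR these log2 ratios were 1.68 and -2.21, and the averaged difference between lines was 0.01. Of 75 analytes tested 0 were called (0%), and 0 had an unadjusted p under 0.05. RBP4 had the smallest p, with a difference of 1.13 (SE 0.80, limma adjusted p = 0.999). For IL-1ra the difference was 0.76 (SE 1.07, limma adjusted p = 0.999) and for DKK-1 -0.36 (SE 0.75, limma adjusted p = 0.999). The fit left 2 residual degrees of freedom. It had no term for the interaction of RT and IL-7, which therefore enters the error. The test does not show that the lines respond alike.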

How the data were processed

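Spot intensities of a chemiluminescent antibody array are the authors' deposited values and are linear. Image software, background removal and scaling were not given in the sources used here. The series table and the membrane files held the same values, with 0 differing. Each of 8 membranes had 222 spots for 111 analytes, and values of 0.001 or 0.0011 were read as spots without signal. There were 35 such spots on the TC-1/IR buffer membrane and 9 on the RT one. The median coefficient of variation of duplicate spots above the floor was 11.1% on the TC-1/IR RT membrane and 6.81% on the buffer one. The RT value was the highest of the 8 membranes. Entrez identifiers gave RefSeq symbols for 111 of 111 entries.

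Duplicate spots were averaged, means under 2.49 set to it, and log2 ratios taken. Standard errors, computed from the paired spots, cover technical error alone. For centring, membranes were first scaled to equal medians over 28 analytes. Medians of 23 functional lists are given as descriptions. The naming rule took the analytes called as deposited or centred, those next to the limit and IL-7. Members of lists with 2 or more measured were given by range and count, some by name, and the rest by count. For 1 analyte higher after RT no values are reported here. limma 3.58.1 in R 4.3.3 fitted line, RT, IL-7 and line by RT and line by IL-7, for analytes above the floor on at least 4 membranes, with Benjamini-Hochberg adjustment. The comparison, its members and lists were chosen with earlier results of these data known. The rules were tested on simulated data that differ from these. For the rule of size every starting level lay well above 2.49, so analytes near the floor were not covered. For limma the simulated interaction was larger than any fitted here, so smaller ones were not covered. Other floors, scalings, thresholds and single spots were tried. The number of arrays limits the precision.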

Additional observations from a re-analysis of the deposited data

Results flagged for a closer look

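CX3CL1, CXCL16, DKK-1 and TNF-α were singled out because their calls for RT against buffer had opposite directions in the 2 lines. CX3CL1 had a log2 ratio of at least 1.79 in TC-1/IR and of -0.62 in TC-1. For TNF-α it was at least 0.61 in TC-1/IR and -0.64 in TC-1. DKK-1 had -0.85 in TC-1/IR and 0.71 in TC-1, and CXCL16 had a bound of -0.83 in TC-1/IR and 0.75 in TC-1. After centring only DKK-1 (-1.69 and 0.76) and CXCL16 (-1.30 and 0.81) were still called in both lines. The line by RT interaction, averaged over IL-7, had a limma adjusted p of 0.999 for each of the 4. That average does not test the opposite calls for RT against buffer alone.

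Within TC-1/IR, 20 analytes were called in opposite directions for RT without and with IL-7, and 6 after centring. Of the 31 higher for RT alone, 19 were lower in the pair given IL-7, where 57.4% of all measured analytes were lower. The common shifts of the 2 pairs were opposite, at 0.84 and -0.86. After centring, 2 of 12 higher and 4 of 12 lower for RT alone were opposite, where 21.5% were called each way. The 6 were CD14 and complement factor D, higher for RT alone, and CCL19, CXCL16, DKK-1 and IL-11, lower for RT alone. This difference was not tested, since the limma fit left out the interaction of RT and IL-7.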

How the results depend on the processing

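As deposited, the count of analytes higher after RT was 49 with a floor of 0.5%, 18 with a floor of 2%, 19 at 2-fold, 46 with a floor per membrane, 12 after centring on all 8 membranes and 12 with equal summed signal, against 31. It was 21 with centring on the 35 analytes of the pair, a shift of 0.39. That shift is the difference of the 2 medians and equals the ratio of IL-15, whereas the median of the 35 ratios was 0.90. The count of lower analytes was 4 with a floor of 0.5%, 1 with 2%, 0 at 2-fold, 12 and 5 with the 2 centrings and 14 with equal sums, against 2. After centring, the 12 higher became 35 with a floor of 0.5%, 27 with a floor per membrane and 4 at 2-fold, and the 12 lower became 4 with a floor of 2% and 4 at 2-fold. The cause of these changes was not tested. The sign of a called ratio turned for MMP-2 (-0.078 centred, -0.18 with equal sums) and PDGF-BB (-0.19 and -0.29), and with equal sums for CCL17 (-0.078), leptin (-0.043) and LDL R (-0.0042). Single spots gave 29 to 34 higher and 2 to 3 lower. With first spots the ratios of CXCL16 (-0.25) and IL-7 (0.49) fell under the limit, and with second spots those of leptin (0.45), TNF-α (0.47) and PDGF-BB (0.20). For line by RT limma called 0 in each alternative that kept all 8 membranes. Fits without each membrane in turn left the line concerned with no residual degrees of freedom, so they give no separate check. No paired analysis was possible because each group had 1 membrane.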

Other observations

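Of the 44 analytes below the floor on both membranes, 26 had both RT spots above both buffer spots and 3 had both below. Their means reached at most 2.46 on either membrane. Along the rows of the membrane, the median log2 ratio of analytes measured on both ran from 0.26 in row H (7 analytes) and 0.34 in row G (6 analytes) to 1.60 in row C (3 analytes) and row F (2 analytes).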
